A study of Homo sapiens with 10 samples.

Results

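The 9 globin genes listed in the RNA-seq tables of K562 cells were followed as a single pool, in which the output of the α-globin cluster was set against the output of the β-globin cluster. The members were taken by gene symbol, 9 of the 20535 genes listed in all 10 tables. The β-like genes are HBE1, HBG1, HBG2, HBD and HBB, and the α-like genes are HBZ, HBA1, HBA2 and HBQ1. All 9 passed the filter of a mean of 1 TPM or more (TPM, a length-corrected share of all transcripts in a library), the limit set for the test across genes, and the means of 7 of them reached 10 TPM.

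Hemoglobin is assembled from equal numbers of α-like and β-like chains, and red cell precursors are damaged when chains of either kind are left without partners. The chains switch during development. HBZ (zeta) and HBE1 (epsilon) are embryonic, HBG1 and HBG2 (the γ-globin genes) are fetal, HBA1 and HBA2 (α) serve both the fetus and the adult, HBD (delta) contributes to a minor adult hemoglobin, and HBB (β) is the main adult β-like gene. HBQ1 (theta) is a minor gene at the end of the α cluster. The β-like genes share the locus control region, a group of enhancers upstream of HBE1 that includes the hypersensitive site HS2. The α-like genes lie on another chromosome and have distal enhancers of their own inside the neighbouring gene NPRL3.

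K562 is a human erythroleukemia line that transcribes embryonic and fetal globin genes. The 10 libraries form 5 groups of 2. The control is labelled sgGal4, a guide RNA without a target at HS2, and its label does not name the effector it carries. The other 4 groups carry guides to HS2 (sgHS2) and are labelled dCas9-LSD1 (L), dCas9-KRAB (K), enCRISPRi-LK (LK), which joins dCas9-LSD1 to KRAB held on the guide by the MCP protein, and enCRISPRi-KL (KL), which joins dCas9-KRAB to MCP-LSD1. KRAB is a repressor domain and LSD1 a histone demethylase. All are polyclonal populations that were transduced with lentivirus, induced with doxycycline and enriched by flow sorting for the reporters of the constructs, so a group describes sorted cells of a single line. The labels do not say whether the libraries of a group came from separate cultures, and p-values here measure the spread between these libraries.

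The genes that encode the effector domains did not follow every label. KDM1A, which encodes LSD1, stood at 105 and 84.2 TPM in the libraries labelled L and between 25.2 and 33.5 TPM in all others, including those labelled LK and KL. ZNF10, a source of the KRAB domain, stood at 128 and 136 TPM in the libraries labelled L, at 36.8 and 31.5 TPM in those labelled LK and at 365 and 360 TPM in those labelled KL, but at 1.18 and 3.80 TPM in those labelled K and at 0.97 and 1.89 TPM in those labelled sgGal4. The libraries labelled L thus had ZNF10 where the label names no KRAB, and those labelled K lacked a rise where the label names it. The groups are called by their labels throughout, and every direction below holds for the libraries so labelled. The erythroid markers TFRC, KLF1, TAL1, LMO2, NFE2, EPOR and ALAS2 were above 0 in every library. Of the markers of other blood cells, CD3E, MS4A1, CD79A and CD163 were listed at 0 in all libraries, and CD14 did not exceed 0.73 TPM. Transcripts of the 13 mitochondrial genes took between 39.9% and 53.6% of the listed TPM, and the highest share was that of sgGal4 replicate 1. TPM values keep no read numbers, so the depth behind each value is unknown. In bulk RNA, fewer cells that express a gene and less RNA per cell cannot be told apart.

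Both clusters hold near-identical copies, which bears on every sum below because reads that aligned to several places of the genome were dropped by the authors. In GRCh37 (hg19) coordinates, the β-like genes are transcribed from the minus strand of chromosome 11, in the order HBE1 (5289575 to 5291175), HBG2 (5274418 to 5276011), HBG1 (5269499 to 5271087), HBD (5254068 to 5255713) and HBB (5246694 to 5248301). The α-like genes lie on the plus strand of chromosome 16 in the order HBZ (202643 to 204502), HBA2 (222875 to 223709), HBA1 (226679 to 227521) and HBQ1 (230458 to 231178). Each has 3 exons. The coding sequences of HBA1 and HBA2, 429 bases each, were identical, and those of HBG1 and HBG2, 444 bases each, differed at 2 bases. Counted from 1 at the A of the start codon, with the base of HBG1 written before the position and that of HBG2 after it, these were C227T and C410G. HBD and HBB shared 92.8% of their coding bases, HBE1 and HBG1 83.6%, and HBA1 and HBZ 68.5%.

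The stretches around both differences are shown because, within the coding sequence, a read must cover one of them to be placed in HBG1 or HBG2. They were read from the GENCODE transcripts on GRCh37, 5′ to 3′ on the coding strand, with the differing base in capitals. Coding bases 213 to 241 hold C227T, and coding bases 396 to 424 hold C410G.
HBG1, coding bases 213 to 241: cttgggagatgccaCaaagcacctggatg
HBG2, coding bases 213 to 241: cttgggagatgccaTaaagcacctggatg
HBG1, coding bases 396 to 424: gaagatggtgactgCagtggccagtgccc
HBG2, coding bases 396 to 424: gaagatggtgactgGagtggccagtgccc

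Each annotated transcript was divided into all windows of 75 bases, and the windows found in no transcript of another gene were counted. They made up 100% of the windows of HBE1, HBD, HBB and HBQ1 and 60.9% of those of HBZ, which shares the rest with the pseudogene HBZP1. HBG1 and HBG2 had 39.0% and 38.9%, and HBA1 and HBA2 had 19.3% and 19.1%. With windows of 50 or 100 bases the shares were 58.9% and 63.1% for HBZ, 32.3% and 46.1% for HBG1, and 18.4% and 20.3% for HBA1. Within a gene the share is the same in every library, so it weighs little on a comparison of that gene between groups, but it enters any level set against another gene.

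**Figure D1:**
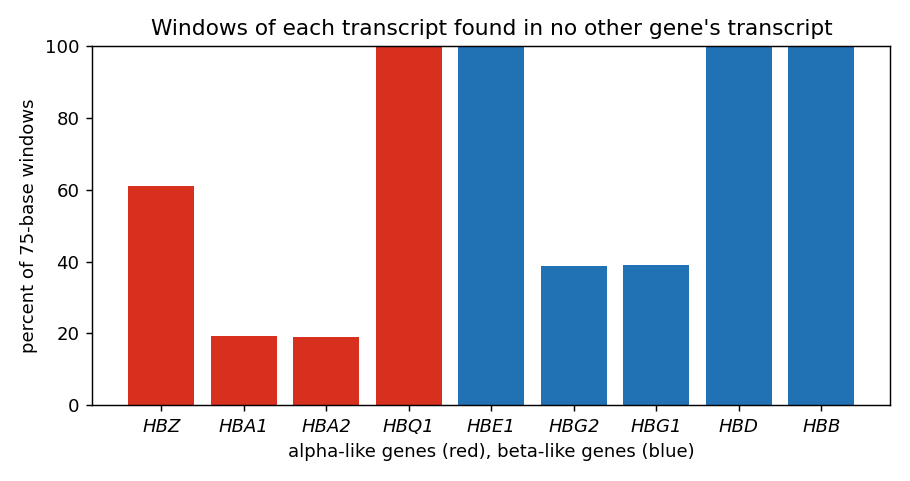
Percent of all 75-base windows of each globin transcript that occur in no transcript of another gene (bars, linear axis from 0), with α-like genes in red and β-like genes in blue. HBE1, HBD, HBB and HBQ1 reach 100%, HBZ 60.9%, the γ-globin genes about 39.0%, and HBA1 and HBA2 about 19.3%.

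In the control libraries the pool was led by a β-like gene. HBE1 stood at 1376 and 1620 TPM in the libraries labelled sgGal4, HBZ at 1034 and 940 TPM, and HBG2 at 941 and 673 TPM. The ranges of HBZ and HBG2 touched, so the order of these neighbours did not exceed the spread between the libraries. HBA1 stood at 136 and 81.3 TPM and HBG1 at 118 and 99.4 TPM, and these also overlapped. HBQ1 stood at 28.3 and 40.8 TPM, HBD at 19.4 and 18.5 TPM, HBB at 4.70 and 2.91 TPM, and HBA2 was listed at 3.64 TPM in replicate 1 and at 0 in replicate 2. In TPM as deposited, the embryonic genes HBE1 and HBZ were the most abundant member of each cluster in these libraries, and the adult genes HBB and HBA2 were the lowest. The lead of HBE1 turned when the TPM of each gene was divided by its share of unique 75-base windows: HBG2 then took 36.8% and 30.7% of globin TPM in the control libraries and HBE1 20.9% and 28.8%. Among the listed genes ordered by TPM, HBZ ranked between 19 and 89 over the 10 libraries, HBE1 between 36 and 177, and HBG2 between 61 and 303.

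**Figure D2:**
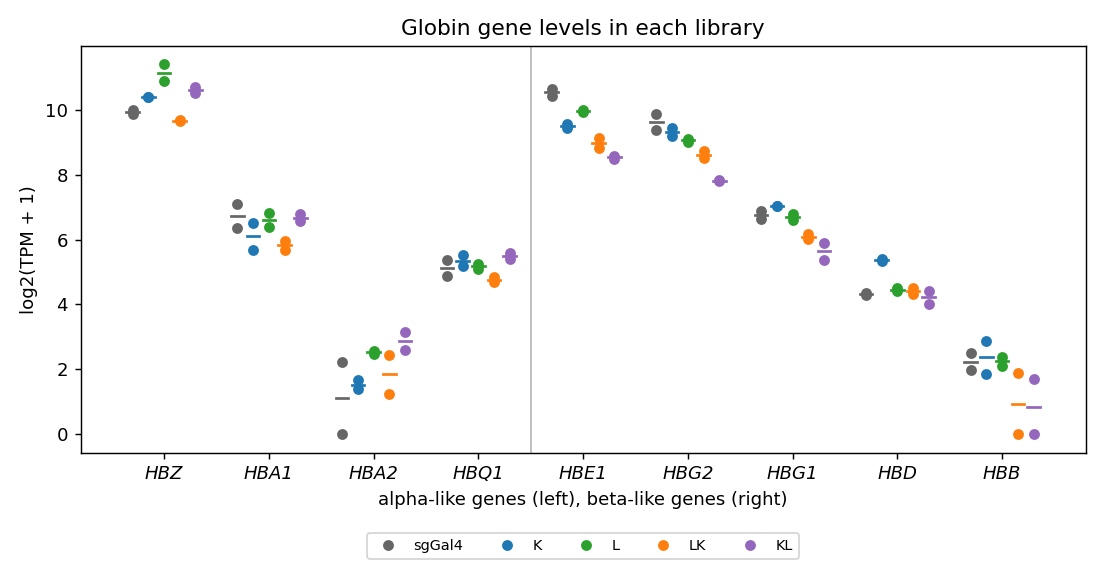
Level of each globin gene as log2(TPM + 1) in each of the 10 libraries (points, coloured by group label) with the mean of the 2 libraries of a group (short line). HBE1 and HBG2 step down from sgGal4 to LK and KL, while HBZ is highest in the libraries labelled L and lowest in those labelled LK.

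The question of the design is how far each effector at HS2 moved the genes it serves. Each group with sgHS2 was compared with sgGal4 by limma on log2(TPM + 1), in a single fit of all 10 libraries with Benjamini-Hochberg adjustment over 10127 genes and an adjusted p of 0.05 as the threshold. The 4 comparisons share the sgGal4 libraries and are not independent of each other. With K, 2 of the 9 globin genes passed, HBE1 lower and HBD higher, against 1.62% of all genes tested. With L, 1 passed, HBZ higher, against 0.869% in both directions and 0.306% higher. With LK, 2 passed, HBE1 and HBG2 lower, against 2.00% in both directions and 0.829% lower. With KL, 4 passed, HBE1, HBG1 and HBG2 lower and HBZ higher, against 1.36%. Over the 5 groups together, the moderated F test passed HBE1, HBG1, HBG2 and HBZ, against 1.82% of all genes.

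The embryonic gene HBE1 had the clearest order of the β-like genes. In the libraries labelled K its level was 695 and 759 TPM. With the label L it was 1019 and 986 TPM, with LK 557 and 458 TPM, and with KL 384 and 361 TPM. All 8 libraries with sgHS2 were below both sgGal4 libraries, and no 2 groups overlapped. On the log2(TPM + 1) scale HBE1 fell by 1.04 with K (SE 0.129, limma adjusted p = 0.00296), by 1.56 with LK (adjusted p = 2.55e-05) and by 2.00 with KL (adjusted p = 1.49e-06). The difference with L was -0.57 (adjusted p = 0.0567), past the threshold in 3 of 9 other settings of the processing.

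The fetal genes HBG1 and HBG2 encode near-identical γ chains, which replace epsilon chains in the fetus. HBG2 stood at 698 and 581 TPM with the label K, 554 and 519 TPM with L, 365 and 421 TPM with LK and 222 and 229 TPM with KL. The libraries labelled K overlapped with sgGal4, and the other 3 groups lay below it. HBG2 fell by 1.02 with LK (adjusted p = 0.00556; 0.0758 without LK replicate 1) and by 1.81 with KL (adjusted p = 5.47e-05), while its differences were -0.32 with K (adjusted p = 0.348) and -0.57 with L (adjusted p = 0.125; 0.0200 without sgGal4 replicate 2). HBG1 was lower in level and followed another order, with 132 TPM in both libraries labelled K, 110 and 97.4 TPM with L, 70.6 and 64.5 TPM with LK and 58.9 and 40.6 TPM with KL. The libraries labelled K were the highest for HBG1, above both sgGal4 libraries, at a difference of 0.28 that did not pass (adjusted p = 0.535). HBG1 fell by 1.13 with KL (adjusted p = 0.00994), and that call was lost without sgGal4 replicate 1 (adjusted p = 0.0734) and without KL replicate 2 (adjusted p = 0.147).

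The adult members did not share the order of HBE1. HBD stood at 41.1 and 39.1 TPM in the libraries labelled K and between 15.2 and 22.0 TPM in all other libraries, sgGal4 included. The difference of K from sgGal4 was 1.04 on the log2(TPM + 1) scale (SE 0.245, adjusted p = 0.0492), and it missed the threshold when any of the 10 libraries was left out (adjusted p between 0.0591 and 0.184). HBB was listed at 6.36 and 2.64 TPM with K, 3.28 and 4.26 TPM with L, 0 and 2.66 TPM with LK, and 0 and 2.25 TPM with KL. These values are within a few TPM of 0 in every library, and no difference of HBB passed the threshold in any comparison.

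On the α side, HBZ carried most of the sum. Where the label was K, this embryonic gene stood at 1345 and 1340 TPM. It reached 2712 and 1909 TPM under the label L, 800 and 829 TPM under LK and 1457 and 1659 TPM under KL. The 2 libraries labelled LK were below both sgGal4 libraries, and the 6 of the other labels with sgHS2 were above both. HBZ was higher with L by 1.21 (SE 0.142, adjusted p = 0.00115) and with KL by 0.66 (adjusted p = 0.0340). The call with L was kept without any of the 10 libraries. The call with KL was kept in only 2 of the 10 fits that left out a library (adjusted p between 0.0123 and 0.273) and in 3 of 9 other settings. The differences with K and LK, 0.45 and -0.28, did not pass (adjusted p = 0.140 and 0.409).

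The adult α genes showed no such pattern. HBA1 stood at 50.8 and 90.2 TPM in the libraries labelled K, at 113 and 83.1 TPM with L, at 60.7 and 50.8 TPM with LK and at 109 and 94.6 TPM with KL. The libraries of sgGal4, at 136 and 81.3 TPM, overlapped with those labelled K, L and KL. None of its differences from sgGal4 passed, the largest being -0.91 with LK (SE 0.282, adjusted p = 0.137). HBA2 did not exceed 7.92 TPM in any library, and none of its differences passed with all libraries (with KL 1.78, adjusted p = 0.187; 0.0423 without sgGal4 replicate 1). Although HBA1 and HBA2 have nearly the same share of unique windows, HBA1 was the higher in all 10 libraries. HBQ1 ranged from 24.7 to 47.0 TPM, lowest in a library labelled LK and highest in one labelled KL, and none of its differences passed.

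The 2 clusters were then summed. The β-like sum was 2459 and 2414 TPM in the libraries labelled sgGal4, 1572 and 1513 TPM with K, 1707 and 1627 TPM with L, 1015 and 965 TPM with LK, and 686 and 648 TPM with KL. In TPM as deposited, every group was separate from every other. The libraries of a group differed by less than the groups did (within-group SD of the log2 sum 0.0454, 5 degrees of freedom). Relative to sgGal4 the β-like sum was 0.633 times as high under K, 0.684 times under L, 0.406 times under LK and 0.274 times under KL. As deposited, the single genes were less steady than their sum. In the control libraries HBE1 was the higher in replicate 2 and HBG2 the higher in replicate 1, so that the sums differed by less than either gene did. This rests on the treatment of shared reads. After division by the share of unique 75-base windows, the control sums lay farther apart. The libraries labelled K and L then overlapped, and no other 2 groups did.

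The α-like sum took another order. It was 1202 and 1062 TPM with sgGal4, 1432 and 1478 TPM with K, 2863 and 2034 TPM with L, 890 and 909 TPM with LK, and 1621 and 1801 TPM with KL. Relative to sgGal4 it was 1.29 times as high under K, 2.14 times under L, 0.796 times under LK and 1.51 times under KL (within-group SD of the log2 sum 0.174). The libraries labelled LK were thus the lowest in the α-like sum, below both control libraries, and the only group with sgHS2 on that side. The libraries labelled L differed by more than those of any other group, with 2863 TPM in replicate 1 and 2034 TPM in replicate 2.

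**Figure D3:**
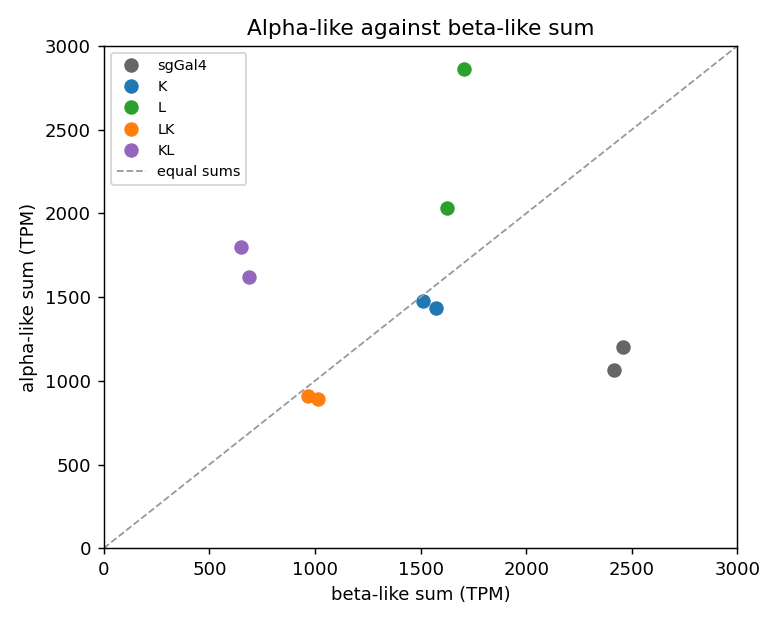
Summed TPM of the 4 α-like genes (vertical axis) against that of the 5 β-like genes (horizontal axis), with a point for each of the 10 libraries and a dashed line where both sums are equal. The sgGal4 libraries lie to the lower right at β-like sums of 2459 and 2414 TPM, those labelled K and LK lie just below the line, and those labelled L and KL lie above it.

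The ratio of the sums does not depend on how a library is scaled. It compares transcripts, and the globin chains themselves were not measured here. In the libraries labelled sgGal4 the α-like to β-like ratio was 0.489 and 0.440, with a mean of 0.464 ± 0.0343 (SD, n = 2). With K it was 0.911 and 0.977 (0.944 ± 0.0465), with LK 0.877 and 0.942 (0.909 ± 0.0458), with L 1.68 and 1.25 (1.46 ± 0.302), and with KL 2.36 and 2.78 (2.57 ± 0.294). All 8 libraries with sgHS2 were above both control libraries. The libraries labelled K and LK overlapped, and no other 2 groups did. The ratio was given no test, because the genes that enter it were chosen with earlier results of these data known. On the log2 scale the differences from sgGal4 were 1.02 with K, 0.97 with LK, 1.64 with L and 2.47 with KL, each with a standard error of 0.167 from the spread within groups, which correspond to ratios 2.03, 1.96, 3.12 and 5.53 times that of sgGal4.

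**Figure D4:**
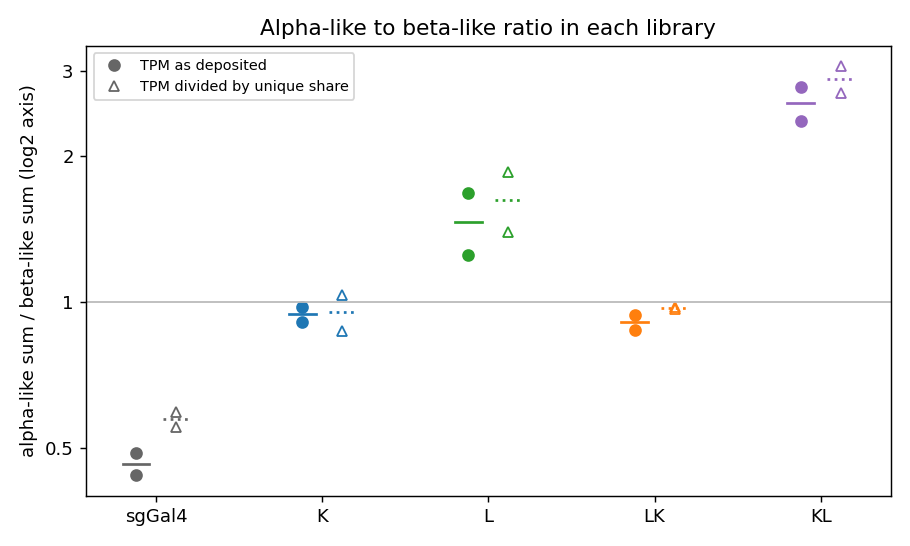
Ratio of the α-like to the β-like sum in each library (log2 axis), from the TPM as deposited (filled circles, solid line for the group mean) and after dividing the TPM of each gene by its share of unique 75-base windows (open triangles, dotted line). The sgGal4 libraries lie lowest in both forms, K and LK lie near 1, and KL lies highest, at 2.36 and 2.78 as deposited.

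Groups with a like ratio reached it with different sums. K and LK had mean ratios of 0.944 and 0.909, but the whole globin pool was 2998 ± 10.1 TPM with K and 1889 ± 21.8 TPM with LK (SD, n = 2). With K, the β-like sum was lower than in the control and the α-like sum higher, whereas with LK both were lower. The higher α-like sum with K depended on the scaling. As a share of the listed TPM without mitochondrial genes, it overlapped between K and sgGal4, and the other directions were kept. With L and KL the α-like sum exceeded the β-like sum in all 4 libraries. In the libraries labelled L a β-like sum of 1667 ± 56.5 TPM stood beside the highest α-like sum, and in those labelled KL the lowest β-like sum, 667 ± 26.8 TPM, stood beside an α-like sum of 1711 ± 127 TPM.

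The ratio was also formed without its most abundant α-like gene. Without HBZ in the α-like sum, the log2 differences from sgGal4 were 0.27 (K), 0.49 (L), 0.54 (LK) and 1.96 (KL). In this form the libraries labelled K overlapped with the control, and those labelled L, LK and KL lay above it. The ratio with KL thus remained the farthest from the control. HBZ was read against HBE1, the other embryonic gene, in the same way. The HBZ to HBE1 ratio was 0.751 and 0.580 with sgGal4, 1.93 and 1.77 with K, 2.66 and 1.94 with L, 1.44 and 1.81 with LK, and 3.79 and 4.59 with KL. As deposited, HBE1 was the more abundant of both in the control libraries and HBZ in all 8 others. After division by the share of unique 75-base windows the control ratios were 1.23 and 0.953, so that neither gene led in both control libraries. The division raises this ratio by the same factor in every library, so the lead of HBZ in all 8 others could not be lost (group means from 2.67 with LK to 6.88 with KL).

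The unequal loss of shared reads was considered by dividing the TPM of each gene by its share of unique 75-base windows. This treats all reads from shared windows as lost and the rest as evenly spread over the transcript. The mean ratio became 0.573 with sgGal4, 0.955 with K, 0.973 with LK, 1.63 with L and 2.88 with KL, and the control libraries were again below all others. The differences of K and LK from sgGal4 shrank to 0.73 and 0.76 on the log2 scale. In this form 1 of the libraries labelled K lay above 1 and the other below (1.04 and 0.874).

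The balance of embryonic to fetal β-like genes spanned a narrower range than that of α-like to β-like genes. HBE1 relative to the sum of HBG1 and HBG2 was 1.30 and 2.10 with sgGal4, 0.839 and 1.07 with K, 1.54 and 1.60 with L, 1.28 and 0.943 with LK, and 1.37 and 1.34 with KL. The libraries labelled K and LK lay below both control libraries, and those labelled L and KL lay between them. The log2 differences from sgGal4 were -0.80 (K), -0.07 (L), -0.59 (LK) and -0.29 (KL), with a standard error of 0.281 that is set mostly by the gap between the control libraries. The γ-globin sum behind these ratios was 1059 and 773 TPM with sgGal4, 829 and 712 TPM with K, 663 and 617 TPM with L, 436 and 485 TPM with LK, and 281 and 269 TPM with KL. Which kind of transcript led depended on the treatment of shared reads. As deposited, HBE1 exceeded the γ-globin sum on average in every group but K (mean ratio 0.952 ± 0.160), and after division by the unique share the mean ratio was below 1 in every group, between 0.370 with K and 0.660 with sgGal4.

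HBG2 was more abundant than HBG1 in every library. The HBG2 to HBG1 ratio was 7.99 and 6.77 with sgGal4, 5.30 and 4.41 with K, 5.04 and 5.33 with L, 5.18 and 6.53 with LK, and 3.78 and 5.63 with KL. The control libraries were the highest, above all 8 libraries with sgHS2, at log2 differences between -0.34 with LK and -0.67 with KL (standard error 0.240). Both genes have nearly the same share of unique windows, so dividing by it hardly moved this ratio (7.40 in place of 7.38 on average with sgGal4).

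On the α side, the embryonic HBZ exceeded the sum of HBA1 and HBA2 in every library. The ratio was 7.39 and 11.6 with sgGal4, 25.7 and 14.5 with K, 23.0 and 21.8 with L, 12.9 and 15 with LK, and 12.4 and 16.6 with KL. All libraries with sgHS2 were above the control, the nearest by little (12.4 against 11.6). After division by the unique share the mean ratios were 3.0, 6.36, 7.08, 4.41 and 4.60 in the same order of groups. The size of this ratio thus rests on the treatment of shared reads. Its order of groups could hardly change, because the division scales the ratio by nearly the same factor in every library.

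The composition of the pool summarizes these values. In the control libraries β-like transcripts made up 68.3% ± 1.60 (SD, n = 2) of globin TPM. The share was 51.5% ± 1.23 with K, 52.4% ± 1.26 with LK, 40.9% ± 5.02 with L and 28.1% ± 2.31 with KL. As deposited, HBE1 was the largest member in the control at 42.1% ± 6.37 and took between 15.7% with KL and 26.8% with LK in the other groups. HBZ took 27.6% ± 0.839 in the control, 44.8% ± 0.0451 with K, 43.1% ± 1.58 with LK, 55.7% ± 5.10 with L and 65.5% ± 3.26 with KL, and was the largest member in all 8 libraries with sgHS2. HBG2 took 22.5% ± 4.49 in the control, 21.3% ± 2.69 with K and 20.8% ± 2.33 with LK, but 13.1% ± 1.46 with L and 9.49% ± 0.215 with KL. After division by the share of unique 75-base windows HBG2 was the largest member in the control, at 33.8% ± 4.31 beside 26.6% ± 1.12 for HBZ and 24.8% ± 5.53 for HBE1. HBZ was then still the largest in all 8 libraries with sgHS2, with means from 39.5% with LK to 59.9% with KL.

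The embryonic genes HBE1 and HBZ together took 69.7% ± 5.53 of the pool in the control, 69.0% ± 1.62 with K and 70.0% ± 1.82 with LK. They took 80.4% ± 1.82 with L and 81.2% ± 1.91 with KL, above all libraries of the other 3 groups. The share of both embryonic genes together was thus alike on average in the control, K and LK, while its split between HBE1 and HBZ was not. After division by the unique share the embryonic genes took less of the pool, 51.4% in the control, 54.6% with K and 54.5% with LK, and between 66.2% and 70.9% in the 4 libraries labelled L and KL. The other genes took small shares of the deposited TPM. HBD took 0.531% ± 0.00185 in the control and 1.34% ± 0.0427 with K, HBQ1 took between 0.871% with L and 1.87% with KL, and HBA1 between 2.35% with K and 4.30% with KL. The share of HBA1 rests most on the treatment of shared reads. After the same division it was between 6.81% with K and 12.4% with KL, and with KL it exceeded that of HBE1, at 8.75%, and lay near that of HBG2, at 13.6%.

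**Figure D5:**
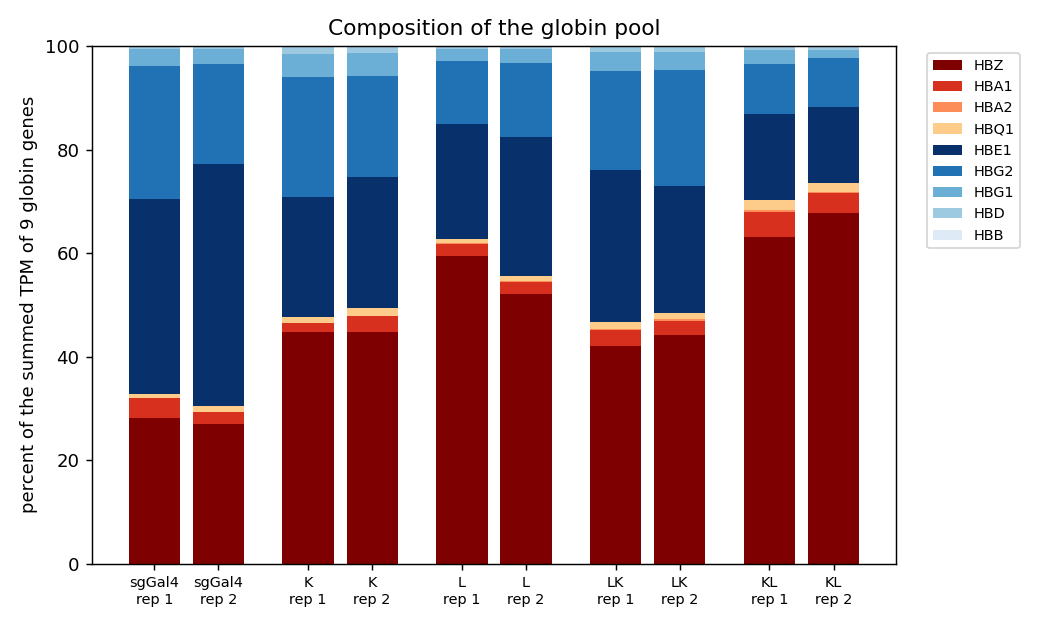
Percent of the summed TPM of the 9 globin genes taken by each gene in each library (stacked bars from 0 to 100), with α-like genes in reds below and β-like genes in blues above. The β-like part shrinks from a mean of 68.3% in the sgGal4 libraries to 28.1% in those labelled KL, and HBZ is the largest segment in all 8 libraries with sgHS2.

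The size of the pool did not follow its balance. Its share of the listed TPM was 0.431% ± 0.00416 in the control, 0.376% ± 0.00373 under K, 0.503% ± 0.0782 under L, 0.231% ± 0.00618 under LK and 0.293% ± 0.00929 under KL. The libraries labelled L were above the control and the other 3 groups below it. With the mitochondrial genes left out of the total, the control libraries moved apart, to 0.935% and 0.759%, and overlapped with those labelled L, at 1.05% and 0.830%. The libraries labelled K, LK and KL remained below the control, with 0.679% as their highest value.

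The dual effectors were compared with the single effectors by setting the 4 libraries labelled LK and KL against the 4 labelled K and L. Dual and single name the labels here, since KDM1A and ZNF10 were both raised over sgGal4 only in the libraries labelled L. In this comparison 4 of the 9 globin genes passed, HBE1, HBG1, HBG2 and HBZ, all lower with the dual effectors, against 0.0889% (9 genes) of all genes tested in both directions and 0.0494% lower. HBE1 fell by 0.97 on the log2(TPM + 1) scale (SE 0.0910, adjusted p = 0.000237), HBG2 by 0.97 (adjusted p = 0.00174) and HBG1 by 1.01 (adjusted p = 0.0105). For these genes each of the 4 dual-effector libraries was below each of the 4 others. HBZ fell by 0.63 (SE 0.101, adjusted p = 0.0372), but its libraries overlapped, since those labelled KL (1457 and 1659 TPM) were above those labelled K (1345 and 1340 TPM). The HBZ call was kept in 3 of the 10 fits that left out a library (adjusted p between 0.00345 and 0.161), and that of HBG1 was lost without K replicate 1, K replicate 2, L replicate 1, LK replicate 2 or KL replicate 2 (adjusted p between 0.0555 and 0.0740).

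Both clusters were therefore lower on average with the dual effectors. The β-like sum was 0.507 times and the α-like sum 0.662 times that of the single effectors. The β-like sums of the dual and single libraries did not overlap, but the α-like sums did, since the mean with KL (1711 TPM) was above that with K (1455 TPM). The ratio was higher by 0.39 on the log2 scale (standard error 0.118), with overlap between the libraries, and by 0.87 when HBZ was left out of the α-like sum. The embryonic to fetal ratio of the β-like genes differed by 0.0023 on the log2 scale (standard error 0.199).

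The averages of the dual effectors hid a difference between them. Of the 9 globin genes, 2 passed when LK was compared with KL, against 0.385% of all genes tested, HBG2 higher with LK by 0.80 (SE 0.159, adjusted p = 0.0485) and HBZ lower with LK by 0.93 (SE 0.142, adjusted p = 0.0131). HBE1 did not pass (difference 0.44, adjusted p = 0.230), although its libraries did not overlap. The call of HBG2 was lost when any library with sgHS2 was left out (adjusted p between 0.0602 and 0.428), and that of HBZ without LK replicate 1, LK replicate 2, KL replicate 1 or KL replicate 2 (adjusted p between 0.0755 and 0.184). The direction of both was kept in all these fits. The β-like sum was 1.48 times as high with LK as with KL and the α-like sum 0.526 times as high, so the α-like to β-like ratio with LK was 0.355 times that with KL (log2 difference -1.50, standard error 0.167), with no overlap. The ratio of HBZ to the adult α genes (log2 difference -0.05, standard error 0.364) overlapped between them.

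Partners of the globin genes were read from a list of 18 gene symbols, of which 17 were found in the deposited data. Of 6 genes listed under the broad heading of chain handling, AHSP, the chaperone of free α chains, was listed at 0 in 9 libraries and at 0.91 TPM in KL replicate 1. The other 5 were tested: EIF2AK1 (the heme-regulated kinase that slows globin translation), UBE2O (a ubiquitin ligase for unpaired α chains), PRDX2, NUDC and HSPA8. Only HSPA8, which encodes a constitutive chaperone, passed in any comparison. It stood at 2358 and 1953 TPM with the label K and 1193 and 1628 TPM with sgGal4 (difference 0.62, adjusted p = 0.0404), and the call was kept in 6 of 19 alternatives. Its differences with L, LK and KL, 0.27, 0.51 and 0.37, had the same sign and did not pass. Of the neighbours of the α cluster, 7 were tested, namely NPRL3, MPG, RHBDF1, POLR3K, SNRNP25, LUC7L and ITFG3. RHBDF1, an inactive rhomboid protease gene, was lower with LK by 2.20 (adjusted p = 0.0352, kept in 10 of 18 alternatives), at 1.17 and 0 TPM against 4.90 and 6.72 TPM with sgGal4. Its differences with K, L and KL, -0.80, -1.41 and -1.57, did not pass, but every library with sgHS2 was below both control libraries. No other neighbour passed in any comparison. The median difference of the neighbours was 0.03 with K, 0.09 with L and 0.18 with KL, beside 0.32, 0.63 and 0.51 for the 4 α-like genes and 0.0572, 0.00497 and 0.0501 for all genes. With LK both were below the control and nearer to each other, at -0.22 for the neighbours and -0.32 for the α-like genes, beside 0.0277 for all genes. The α-like medians do not describe a shared shift. With L, HBZ differed by 1.21 and HBA2, a gene of at most 7.92 TPM, by 1.42, but HBQ1 by 0.046 and HBA1 by -0.12. Of the α-like genes only HBZ passed against sgGal4, with L and KL. Among other globins, HBM, MB and NGB were listed at 0 in all libraries and CYGB did not exceed 0.78 TPM.

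The erythroid regulator KLF1, which activates globin promoters, was higher with K by 0.95 (adjusted p = 0.0394, kept in 6 of 19 alternatives) and with L by 1.17 (adjusted p = 0.0190, kept in 14 of 19), and was the only one of the erythroid markers named above to pass in any comparison. Its differences with LK and KL were 0.74 and 0.82 (adjusted p = 0.104 and 0.0771). The part of KLF1 in the globin levels was not tested.

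The genes with the pattern most like each sum were found by the Pearson correlation of log2 values over the 10 libraries, among 6103 genes whose mean reached 10 TPM, as a description. For the β-like sum these were BNIP3 (r = 0.927, 6.68 to 23.9 TPM), DMXL1 (r = 0.926) and CA8 (r = 0.907). For the α-like sum they were CAMTA2 (r = 0.956, 9.77 to 19.0 TPM), BLVRB (r = 0.923, 220 to 378 TPM), which encodes a biliverdin reductase of red cells, and ZNF33A (r = 0.921). The points share the group structure and the scaling of the libraries, and the genes named were taken as the highest of 6103.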

How the data were processed

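RNA-seq was measured in 10 libraries of K562 cells, 2 in each of 5 groups taken from the library labels. Alignment by the authors was to hg19 with STAR 2.5.2b, and only reads with a unique place were used. They deposited 1 RSEM value in TPM for each gene of each library. The annotation used for counting is not given in the sources used here. The labels name poly(A) selection with a directional kit, and the study's methods name another library system. TPM holds no read numbers, so depth is unknown, and no value that needs counts is given.

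From the deposited TPM, log2(TPM + 1) was tested with limma 3.58.1 (R 4.3.3) in a single fit of all libraries (5 residual degrees of freedom) with a mean-variance trend. The 10127 genes whose mean reached 1 TPM were tested, and p-values were adjusted by Benjamini-Hochberg over them in each comparison, with a threshold of 0.05. The fit was checked on simulated data. The added 1 TPM shrinks differences of genes with low TPM. Sums, ratios and shares were computed per library (Python 3.11.15, pandas 2.3.3, numpy 2.4.6; plots with matplotlib 3.10.9) and given without a test, with the SD within groups pooled over the 5 groups. The study's own test takes read counts and could not be run on TPM. Gene positions, transcripts and shared windows were read from GENCODE release 44 mapped to GRCh37.

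The members and gene lists were chosen with earlier results of these data known. The 9 globin genes were named in every comparison, other listed genes where they passed the threshold, and the 3 genes most like each sum. Of the cell type markers, 2 are not reported here. Replicate numbers did not pair libraries: the correlation of deviations lay between -0.0213 and 0.0229 over 10 pairs of groups. Alternatives were a pseudocount of 0.1, no filter or a filter at 10 TPM, median-of-ratios scaling, quantile normalization, removal of mitochondrial genes, no trend, a replicate block, a fit of only the groups compared, other gene sets and averages for the ratio, division by the unique share, and leaving out each library.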

Additional observations from a re-analysis of the deposited data

Results flagged for a closer look

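The globin response differed between the libraries labelled LK and those labelled KL, both set against the same control, in 2 genes by the test of the difference itself. HBG2 was higher with LK than with KL by 0.80 on the log2(TPM + 1) scale (limma adjusted p = 0.0485, range over 19 alternatives 0.0150 to 0.428), at 365 and 421 TPM against 222 and 229 TPM, higher in 2 of 2 libraries. HBZ differed by -0.93 (adjusted p = 0.0131, range 0.00314 to 0.240), at 800 and 829 TPM with LK against 1457 and 1659 TPM with KL, lower in 2 of 2 libraries. Groups of 2 libraries are too small to look for a library that stands apart.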

How the results depend on the processing

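With 2 libraries a group, unknown depth and shared reads dropped by the authors, levels of HBA1, HBA2, HBG1, HBG2 and HBZ relative to other genes are uncertain. HBE1 with LK and KL, HBG2 with KL and HBE1 over the 5 groups passed in every alternative run. The mean difference in the α-like to β-like ratio kept its direction in all of them, although without HBZ the libraries labelled K overlapped with sgGal4. Of 9 globin genes, the number called with K was 1 in place of 2 with a pseudocount of 0.1, no filter, mitochondrial genes removed or only the groups compared. With L it was 2 in place of 1 at a filter of 10 TPM or without mitochondrial genes, and 3 with quantile normalization. With LK it was 1 in place of 2 without a filter, and with KL 2 in place of 4 with only the groups compared. Dual against single effectors gave 1 in place of 4 without a filter, and LK against KL gave 0 in place of 2 without a filter or with median-of-ratios factors and 1 with a pseudocount of 0.1, quantile normalization or mitochondrial genes removed. Without a variance trend the numbers were 0 with K, 0 with L, 1 with LK, 2 with KL, 0 for dual against single effectors, 0 for LK against KL and 1 over the 5 groups. With a replicate block the number was 1 with K and 1 for LK against KL, through the loss of HBD and of HBG2, and no other call of these genes changed with it. The cause of these changes was not tested. Leaving out a library gave 1 to 1 with K, 1 to 2 with L, 1 to 2 with LK, 2 to 4 with KL, 2 to 4 for dual against single effectors, 0 to 2 for LK against KL and 4 to 4 over the 5 groups.

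The log2 difference in the ratio was 0.27 with K, 0.49 with L, 0.54 with LK, 1.96 with KL and 0.87 for dual against single effectors without HBZ. With windows of 50, 75 and 100 bases for the unique share it was 0.70, 0.73 and 0.76 with K and 0.74, 0.76 and 0.79 with LK. Without a library of L it lay between 1.43 and 1.85 with L. Only differences that were not called changed sign. For HBB with L these were -0.0040 with median-of-ratios factors, -0.026 with quantile normalization and -0.039 without mitochondrial genes, which also gave -0.0048 for HBQ1 with L and -0.013 for HBD with LK. Removing mitochondrial genes shifted the median difference of all genes by -0.11 with K and -0.11 with LK. Leaving out a library, the difference ran from -0.38 to 0.64 for HBB, -0.68 to 1.53 for HBA2 and -0.042 to 0.47 for HBQ1 with K, from -0.19 to 0.056 for HBG1, -0.26 to 0.28 for HBB, -0.49 to 0.25 for HBA1 and -0.21 to 0.30 for HBQ1 with L. For HBA2 with LK it ran from -0.37 to 1.84, for HBD and HBA1 with KL from -0.30 to 0.097 and from -0.42 to 0.32, for HBA1 in dual against single effectors from -0.31 to 0.097, and for HBB in LK against KL from -0.85 to 1.02.

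Over all 10127 genes, limma called 164 with K, 88 with L, 203 with LK, 138 with KL, 9 in dual against single effectors, 39 in LK against KL and 184 over the 5 groups. In the same order these were 14, 22, 15, 75, 4, 17 and 39 without a trend and 51, 37, 61, 83, 4, 20 and 58 without a filter. With only the groups compared they were 59, 25, 57, 66, 15 and 23. Quantile normalization gave 151 with L and 15 in dual against single effectors, removal of mitochondrial genes 140 with L, and a pseudocount of 0.1 gave 5 in dual against single effectors. Leaving out a library, the lowest counts were 9 without K replicate 2, 16 without L replicate 2, 20 without LK replicate 1, 49 without KL replicate 2, 3 without K replicate 2 or KL replicate 2, 3 without LK replicate 1 or LK replicate 2, and 69 without KL replicate 2. Counts over 1.5 times as high were 138 with L without sgGal4 replicate 2, and 15 in dual against single effectors without sgGal4 replicate 1 or 2.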
